A study of Mus musculus with 9 samples.

Results

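Fibroblast growth factor (FGF) ligand genes were examined in 9 mouse stem cell libraries, 1 library per group. The members were the rows of the gene table whose symbol was Fgf3, Fgf4, Fgf5, Fgf8, Fgf10, Fgf15 or Fgf17, which gave 7 genes out of 37975 rows, and all 7 reached at least 1 FPKM in some library (15082 rows did). FPKM counts fragments scaled to transcript length and library size, so levels of different genes can be compared per length. Both wild-type references went without doxycycline (dox): R1 embryonic stem cells (ESC) and IM8AR cells, a line of extraembryonic endoderm (XEN) stem cells. The other 7 libraries carried a Sox17 overexpression genotype: Sox17-ESC without dox, Sox17-ESC after 7, 21, 35 and 49 h and 6 days with dox at 100 ng/ml, and Sox17-XEN. The labels name 30 days with and 30 days without dox for Sox17-XEN in wording that leaves the order unclear, and its description calls it dox-independent. The name of the day 6 column includes SORT, which no label explains, and the labels do not give the promoter that drives Sox17 or say whether the line is 1 clone. ESC were grown on mouse embryonic fibroblasts with serum and the cytokine LIF, and XEN cells in serum with fibroblast-conditioned medium.

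FGF ligands are secreted proteins that bind FGF receptors together with heparan sulfate and, through the kinase ERK, act on growth and cell fate. In the early mouse embryo Fgf4 is made by the pluripotent cells of the inner cell mass and favours primitive endoderm, the lineage XEN cells represent, in their neighbours; in ESC culture it acts back on the cells that make it and helps them leave naive pluripotency. Fgf5 marks the primed epiblast, Fgf8 and its close relative Fgf17 act in gastrulation and brain patterning, and Fgf15 is an endocrine FGF, the mouse counterpart of human FGF19. Fgf3 and Fgf10 are paracrine ligands of the Fgfr2b receptor form, known for the inner ear and for lung and limb buds, respectively.

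The 7 genes fell into a group that was high in ESC and a group that was high in XEN lines, and the groups include genes that lie side by side on chromosome 7. Fgf3 (ENSMUSG00000031074, mm9 chr7:152023988-152030341), Fgf4 (ENSMUSG00000050917, chr7:152047291-152051148) and Fgf15 (ENSMUSG00000031073, chr7:152080465-152086858) span 62.9 kb. The listed gap from Fgf3 to Fgf4 is 16.9 kb and from Fgf4 to Fgf15 29.3 kb. The other members are Fgf5 (ENSMUSG00000029337, chr5:98683203-98706049), Fgf8 (ENSMUSG00000025219, chr19:45811288-45817405), Fgf10 (ENSMUSG00000021732, chr13:119458598-119580922) and Fgf17 (ENSMUSG00000022101, chr14:71036012-71042075). The row Gm17685 has the same listed locus as Fgf15 and the row Gm16263 lies within Fgf10. Both overlapping rows were low in every library, with at most 0.496 FPKM for Gm17685 and 0.281 FPKM for Gm16263, but strand use is not stated and their reads cannot be told from the members' reads.

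Sequence upstream of the start is shown for Fgf3 and Fgf4, neighbours whose levels went opposite ways, and for Fgf10, which shared the direction of Fgf3. The sequences are RefSeq promoters in build GRCm38.p6, a later build than the mm9 of the expression table, all on the plus strand. They run 5′ to 3′ up to the last base before the RefSeq start, except that 17 bases of an annotated Fgf3 exon are left off. Capitals mark matches to the motifs given after them. Fgf3 is at GRCm38.p6 chr7:144838362-144838594, Fgf4 at chr7:144861136-144861385 and Fgf10 at chr13:118714449-118714698.
Fgf3: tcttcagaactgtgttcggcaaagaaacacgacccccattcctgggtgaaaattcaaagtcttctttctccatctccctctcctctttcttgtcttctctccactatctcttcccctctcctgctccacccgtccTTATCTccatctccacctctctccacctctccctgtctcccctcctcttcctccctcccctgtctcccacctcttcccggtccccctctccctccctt
Fgf4: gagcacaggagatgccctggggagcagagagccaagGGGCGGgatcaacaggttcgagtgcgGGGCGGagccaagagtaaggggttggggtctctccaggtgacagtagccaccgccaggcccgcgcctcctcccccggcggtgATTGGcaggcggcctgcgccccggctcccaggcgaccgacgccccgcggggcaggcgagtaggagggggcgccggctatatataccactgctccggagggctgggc
Fgf10: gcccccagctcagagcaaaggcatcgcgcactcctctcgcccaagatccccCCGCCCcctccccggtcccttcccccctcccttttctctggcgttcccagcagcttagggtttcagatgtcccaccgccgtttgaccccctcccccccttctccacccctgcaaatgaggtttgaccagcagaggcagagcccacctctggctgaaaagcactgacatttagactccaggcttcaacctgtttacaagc

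The Fgf3 window is rich in pyrimidines. C and T made up 79.2% of the 250 bases before its start, a share reached by 0.0761% of 32851 RefSeq promoter windows of that length, where the median was 50%. The Fgf10 window had 63.2% C and T, reached by 2.54% of windows, and the Fgf4 window had 42.4%, reached by 89.2%. The Fgf4 window was instead rich in G and C, at 71.2%, which 7.83% of windows reached. Motifs were searched on both strands. GGGCGG (the GC box) occurred in Fgf4 at -214 to -209 and at -188 to -183 and in Fgf10 at -199 to -194, counted from the start, and 32.7% of windows hold it. CCAAT occurred once in Fgf4, at -106 to -102, and in 33.8% of windows. AGATAA, the motif of GATA factors, occurred once in Fgf3, at -115 to -110, and in 9.99% of windows. The SOX core ACAAT, which is in 27.7% of windows, had no match in these 3. Nor had the octamer ATGCAAAT, found in 1.6%. The TATA type letters, ATAAAA as one form and its overlapping form TATAAA as the other, also had none and are in 22.8% of windows. Only these exact letters were searched, and only in the 250 bases before each start, so sites elsewhere at these genes were not looked for. The printed Fgf4 sequence holds near its end a run of alternating T and A that neither form matches. Of the 7 members 4 were matched in the promoter table. Fgf5 was the other match, with 1 GC box in its window and 52.4% C and T, and Fgf8, Fgf15 and Fgf17 were not matched. The GC box and CCAAT were added after the sequences were seen.

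**Figure D1:**
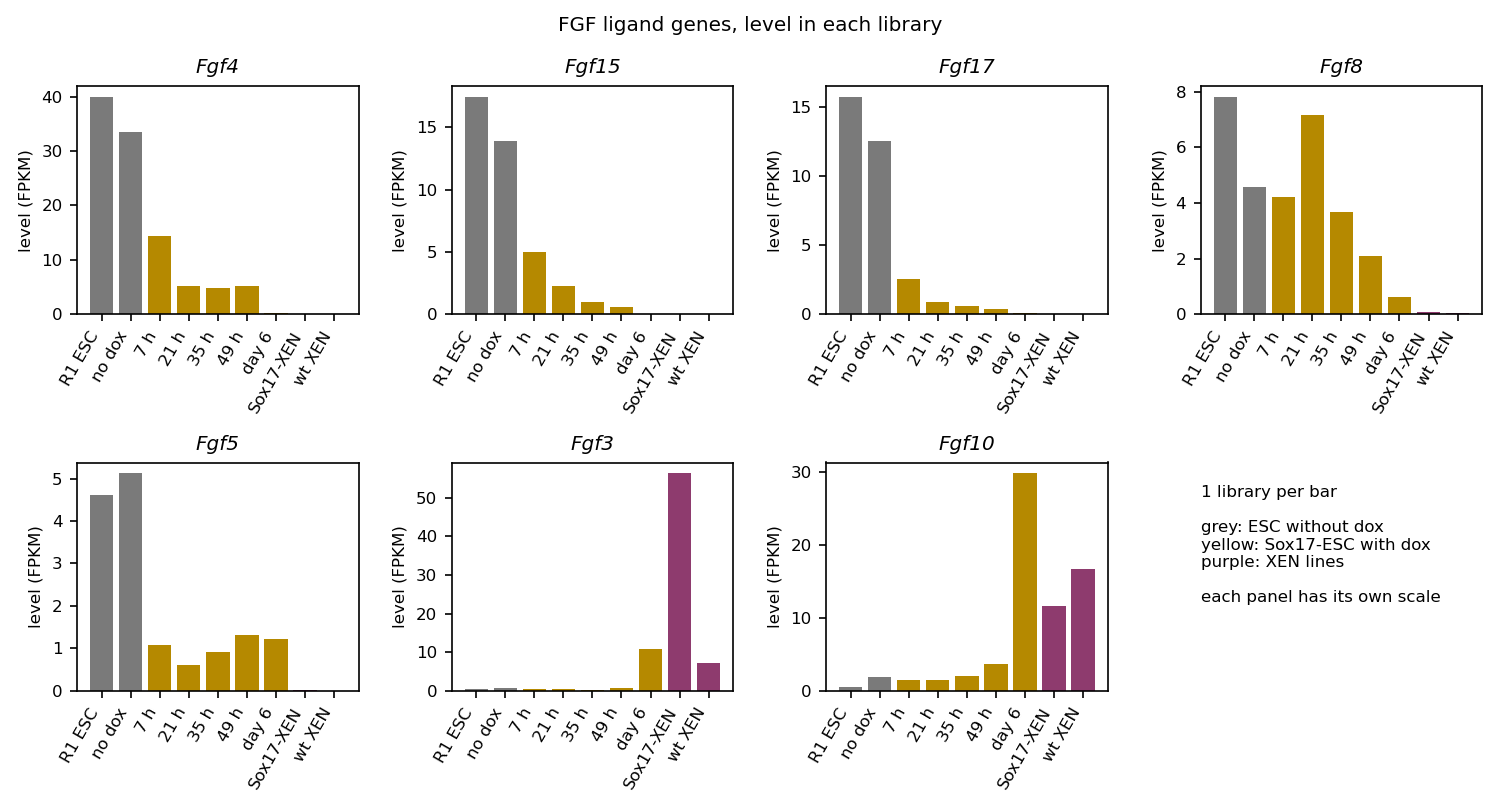
Level of each FGF ligand gene (FPKM, vertical axis, each panel on its own scale from 0) in the 9 libraries, 1 bar per library. Fgf4, Fgf15, Fgf17, Fgf8 and Fgf5 are at their highest in an ESC library without dox, and Fgf3 and Fgf10 are at their highest in Sox17-XEN (56.3 FPKM) and at day 6 (29.8 FPKM).

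Markers listed for the labelled cell types matched the labels in direction. The summed level of the 7 listed ESC markers ran from 1207 to 2096 FPKM in the libraries from ESC to 49 h. It was 370 FPKM at day 6, 13.4 FPKM in Sox17-XEN and 12.4 FPKM in wild-type XEN. Pou5f1 alone made up 325 FPKM of the day 6 sum. The median of the ESC markers with a usable value was 1.86 FPKM at day 6 and 185 FPKM without dox. Esrrb had a usable value only at 7 h (59.2 FPKM) and in the XEN lines, so the other sums leave it out. The 8 listed primitive endoderm and XEN markers summed to 8.61 FPKM in R1 ESC and 20.3 FPKM without dox. From 7 to 49 h their sum was 266 to 335 FPKM with Sox17 included, a range that does not describe the other markers. Induced Sox17 alone supplied 283 of the 333 FPKM in the 7 h library and 151 of the 322 FPKM in the 49 h library. Between these libraries the median of the 8 markers went from 2.24 to 21.1 FPKM. The sum was 2972 FPKM at day 6. It was 1807 FPKM in Sox17-XEN and 1626 FPKM in wild-type XEN, but Lama1 had no usable value in either XEN line. Lama1 made up 1169 FPKM of the day 6 sum, so the day 6 and XEN sums are not over the same genes. Of 15 fibroblast feeder markers all 15 were at 1 FPKM or more in each library except wild-type XEN, where 5 were. Sox17 stood at 0.163 FPKM in R1 ESC, 0.909 FPKM without dox, 71.1 to 283 FPKM with dox, 101 FPKM in Sox17-XEN and 239 FPKM in wild-type XEN. No group has a replicate, the absolute depth is unknown, and the estimated depth relative to R1 ESC ran from 62% at day 6 to 127% after 7 h. In these bulk libraries, fewer cells of a type and less RNA per cell cannot be told apart. The authors' lower confidence bound was 0 for all 63 values of the 7 genes, so the intervals of any 2 libraries overlap or touch and the order of levels within a gene is a description.

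Setting wild-type XEN beside R1 ESC shows which ligands were high in each state. A gene is called higher or lower where log2(FPKM + 1) differed by at least 2 units, which is 4-fold in FPKM + 1. All 7 genes were past this difference: Fgf4, Fgf15, Fgf17, Fgf8 and Fgf5 were lower in XEN and Fgf3 and Fgf10 were higher. Over the 14974 features compared, 6.54% were lower and 8.24% higher (14.8% in either direction). The members were chosen with earlier results of these data known, so these shares are a description and not a test. Of the 7 other FGF ligand genes that could be compared, 1 was lower and 0 were higher. The median difference was -3.09 log2 units for the members and 0.21 for all features, while genes at 5 FPKM or more in both libraries had a median shift of 0.44 log2 units in XEN. That shift was 0.25 at day 6 and 0.36 in Sox17-XEN, both against no dox. Rescaling by it left all 7 calls in wild-type XEN, but Fgf3 was then only just past the difference, at 2.00004 log2 units.

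Fgf4 was the most abundant member in both ESC libraries. It was 39.9 FPKM in R1 ESC and 33.6 FPKM in Sox17-ESC without dox, then 14.4 FPKM after 7 h, 5.18 after 21 h, 4.84 after 35 h, 5.15 after 49 h and 0.210 FPKM at day 6. It was at 0.00605 FPKM in Sox17-XEN and 0.0455 FPKM in wild-type XEN. Its level thus stood on a plateau of 14.4% to 15.4% of the no dox level from 21 to 49 h, and at 0.624% at day 6. The difference on the log2(FPKM + 1) scale was -5.29 between wild-type XEN and R1 ESC, -1.17 after 7 h, -2.48 after 21 h, -2.56 after 35 h, -2.49 after 49 h, -4.84 at day 6 and -5.10 in Sox17-XEN, each of the last 6 against no dox. The authors' upper bound was 68.4 FPKM without dox and 11.8 after 21 h.

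Fgf15, which lies next to Fgf4, went lower without a plateau. It was 17.4 FPKM in R1 ESC and 13.9 FPKM without dox, 4.97 after 7 h, 2.30 after 21 h, 0.984 after 35 h, 0.604 after 49 h and 0.0217 FPKM at day 6, and was listed at 0 in both XEN lines. Every later library was lower than the one before it, from 35.9% of the no dox level at 7 h to 0.156% at day 6. Its differences from no dox were -1.31 log2 units at 7 h, -2.17 after 21 h, -2.91 after 35 h, -3.21 after 49 h and -3.86 at day 6.

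Fgf17 had the lowest share of its no dox level among the members from 7 to 49 h. It was 15.7 FPKM in R1 ESC, 12.6 FPKM without dox, 2.55 after 7 h, 0.923 after 21 h, 0.597 after 35 h, 0.352 after 49 h and 0.117 FPKM at day 6, and was listed at 0 in both XEN lines. At 7 h 20.3% of the no dox level was left, and at 49 h 2.81%. The difference from no dox was -1.93 log2 units at 7 h and -2.82 after 21 h, and the levels of Fgf17 in the 2 ESC libraries differed by -0.30 (no dox minus R1 ESC).

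Fgf8, which belongs to the same FGF subfamily as Fgf17, was at 80.7% or more of its no dox level up to 35 h, when Fgf17 was at 4.76%, and lower from 49 h. Its level was 7.81 FPKM in R1 ESC, 4.56 FPKM without dox, 4.21 after 7 h, 7.15 after 21 h, 3.68 after 35 h, 2.11 after 49 h and 0.637 FPKM at day 6. It was 0.0884 FPKM in Sox17-XEN and 0.0370 FPKM in wild-type XEN. The 21 h level was 157% of that without dox and lay between the 2 ESC libraries. Against no dox, no dox-treated library was past 2 log2 units, with 0.55 after 21 h, -0.84 after 49 h and -1.76 at day 6, whereas Sox17-XEN was, with -2.35. With a pseudocount of 0.1 in place of 1, day 6 was also past it. The same held against R1 ESC as the reference, an alternative chosen after the data were seen.

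Fgf5 was low from 7 h on and did not go lower with time in dox. It was 4.61 FPKM in R1 ESC, 5.12 FPKM without dox, 1.09 after 7 h, 0.609 after 21 h, 0.918 after 35 h, 1.32 after 49 h and 1.22 FPKM at day 6. In Sox17-XEN it was at 0.0149 FPKM, and in wild-type XEN it was listed at 0. The levels with dox were 11.9% to 25.7% of that without dox, and the lowest was the 21 h library. Its differences from no dox, between -1.40 and -1.93 log2 units with dox, did not reach 2 until Sox17-XEN (-2.59). This depended on the pseudocount: with 0.1 in place of 1, Fgf5 was past 2 after 7 h (-2.14), 21 h (-2.88) and 35 h (-2.36).

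Fgf3, which XEN lines and day 6 cells held at high levels, was below 1 FPKM in all earlier libraries. It was 0.562 FPKM in R1 ESC, 0.683 FPKM without dox, 0.439 after 7 h, 0.499 after 21 h, 0.228 after 35 h and 0.729 after 49 h. It was at 10.9 FPKM at day 6, 56.3 FPKM in Sox17-XEN and 7.13 FPKM in wild-type XEN, so these 3 libraries lay above the other 6. The difference from no dox was 2.83 log2 units at day 6 and 5.09 in Sox17-XEN, and the difference of wild-type XEN from R1 ESC was 2.38. Fgf3 was the only member past 2 log2 units between the XEN lines, at 2.82 with Sox17-XEN higher. In that comparison 2.73% of 14979 features were higher, 1.59% lower and 4.32% either way.

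Fgf10 was the other member with higher levels in XEN lines, and its highest level was at day 6. It was 0.560 FPKM in R1 ESC, 1.86 FPKM without dox, 1.46 after 7 h, 1.53 after 21 h, 1.97 after 35 h, 3.72 after 49 h, 29.8 FPKM at day 6, 11.6 FPKM in Sox17-XEN and 16.8 FPKM in wild-type XEN. Its difference was 3.51 log2 units between wild-type XEN and R1 ESC, and against no dox 0.72 after 49 h, 3.43 at day 6 and 2.14 in Sox17-XEN. After rescaling to the median gene the last was 1.81, which is no longer past the difference. The authors' upper bound was 178 FPKM at day 6, 80.6 FPKM in Sox17-XEN and 36.3 FPKM in wild-type XEN.

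Fgf10 is known as a ligand of mesenchymal cells, and feeder fibroblasts shared the ESC dishes. The 15 feeder markers summed to 976 FPKM in R1 ESC, 2282 FPKM without dox, 1078 after 7 h, 1430 after 21 h, 1838 after 35 h, 2771 after 49 h, 219 FPKM at day 6, 930 FPKM in Sox17-XEN and 31.3 FPKM in wild-type XEN. Fgf10 was thus highest in libraries that include those with the lowest feeder sums, day 6 and wild-type XEN. Among the ESC and 7 to 49 h libraries its highest level was in the 49 h library, which also had the highest feeder sum. The part of feeder RNA in those low values was not tested.

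**Figure D2:**
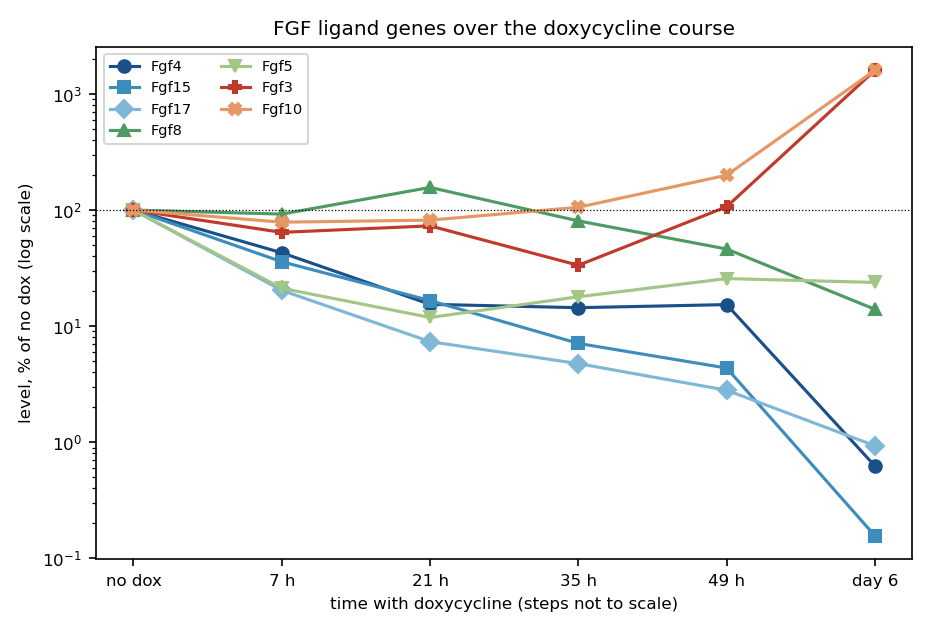
Level of each FGF ligand gene as a percentage of its level without dox (vertical axis, log scale) at the 6 points of the dox course, 1 library per point. Fgf17 and Fgf5 are near 20% at 7 h, Fgf4 is level from 21 to 49 h, Fgf8 stays above 46% until 49 h, and Fgf3 and Fgf10 are near 1600% at day 6.

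The dox course asks when each ligand departs from the uninduced state. At 7 h 0 of 7 members were past 2 log2 units (0.34% of 15007 features were lower, 0.446% higher and 0.786% either way), and the 4 largest differences, -1.17 to -1.93, were those of Fgf4, Fgf15, Fgf5 and Fgf17. At 21 h 3 of 7 were lower, Fgf4, Fgf15 and Fgf17, and 0 were higher, while 0.446% of features were lower and 0.746% higher, 1.19% in all. The same 3 genes were lower at 35 h, when 0.46% of features were lower and 0.614% higher (1.07% in all), and at 49 h, when 0.466% were lower and 0.706% higher (1.17% in all). At day 6 these 3 were lower and Fgf3 and Fgf10 higher, against 3.86% and 5.14% of features (9% either way). In Sox17-XEN 5 were lower and 2 higher, against 5% and 5.75% (10.8% either way). The 6 comparisons share the no dox library. Between the 2 ESC libraries without dox 0 of 7 members were past the difference (0.227% of 14987 features were lower, 0.367% higher and 0.594% either way), and the range was -0.66 for Fgf8 to 0.88 for Fgf10. With R1 ESC in place of the no dox library, Fgf17 was past 2 log2 units at 7 h, beside 0.827% of all features. With that reference 3 members were past it at 21, 35 and 49 h, beside 1.63%, 1.45% and 1.91% of all features.

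A straight-line trend over the 6 libraries of the course was tested with limma on log2(FPKM + 1) and the rank of time, with Benjamini-Hochberg adjustment over 14933 features. In this limma fit 0 of 7 members passed an adjusted p of 0.05, as did 0% of features. At an unadjusted p under 0.05 there were 5 of 7 members, 4 downward and 1 upward, against 8.74% of features downward and 16.4% upward, 25.1% in all. After rescaling to the median gene the features split into 1787 upward and 2073 downward, from 2442 and 1305. Fgf15 had a slope of -0.74 log2 units per step (SE 0.07, limma adjusted p = 0.0801) and a lower level at each step. Fgf4 had a slope of -0.81 (SE 0.14, limma adjusted p = 0.106) and Fgf10 one of 0.58 (SE 0.21, limma adjusted p = 0.177). Without the day 6 library the slope of Fgf10 was 0.17. Slopes of 0.5 log2 units per step in simulated data with a noise SD of 0.263 were all recovered (100%), with 11 false calls. Fgf4, Fgf10, Fgf15 and Fgf17 had steeper slopes and were not called, so that recovery does not describe them. A count of 0 does not show that levels were the same.

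The XEN-type lines were compared with the ESC-type lines by limma, 2 lines against 2, with a required difference of 2 log2 units and adjustment over 14925 features. The Sox17-ESC and Sox17-XEN libraries share a genotype label, so the lines are not fully independent. In limma 0 of 7 members passed, while 0.0402% of features were higher and 0.0469% lower, 0.0871% in all. At an unadjusted p under 0.05 there were 5 of 7 members, all lower in XEN, against 2.1% of features lower and 2.22% higher, 4.32% in all. Fgf4 differed by -5.20 (SE 0.30, limma adjusted p = 0.0754), Fgf15 by -4.05 (SE 0.30, limma adjusted p = 0.132) and Fgf17 by -3.91 (SE 0.29, limma adjusted p = 0.144), each lower in 2 of 2 XEN-type lines than in either ESC library. Fgf3 differed by 3.74 with an SE of 1.04, the widest of the 7, since the XEN lines themselves were far apart. Tested against 0 instead of 2 log2 units, 6 of 7 members passed, Fgf3 being the exception. Of all 14925 features, 1729 passed that test with higher and 1476 with lower levels in XEN.

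**Figure D3:**
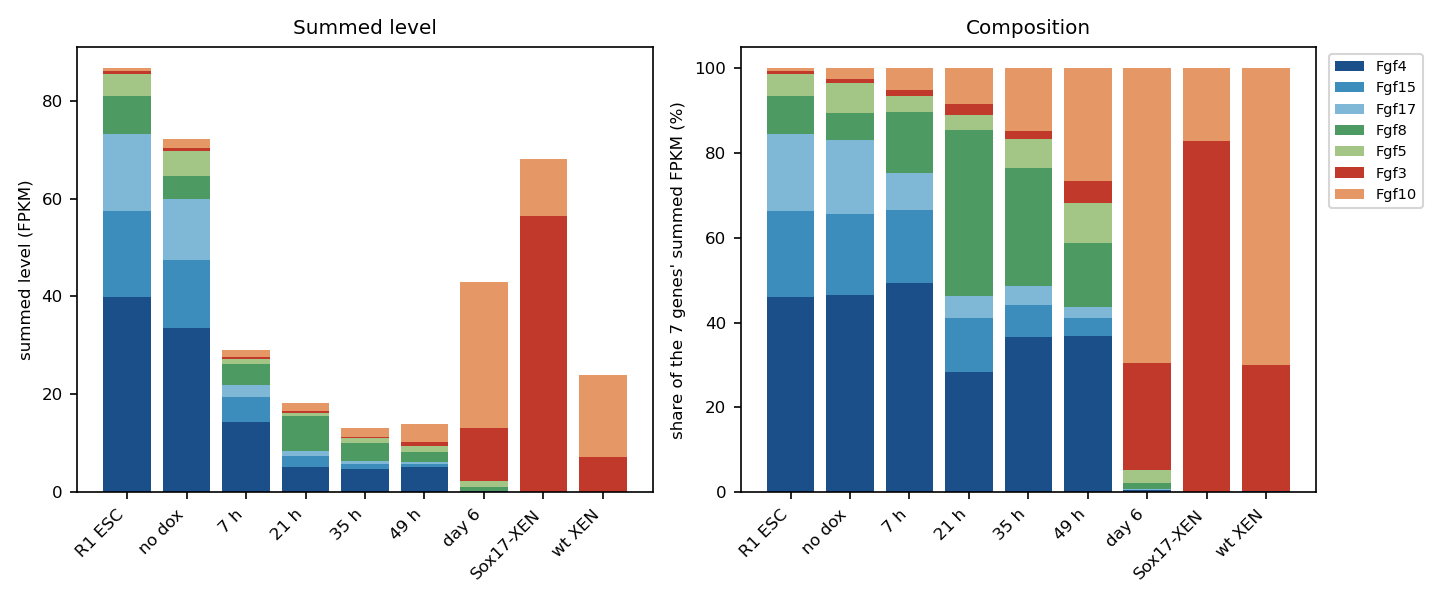
Summed level of the 7 FGF ligand genes (FPKM, left) and the share of each gene in that sum (percent, right) in each of the 9 libraries. Fgf4 is the largest share in both ESC libraries and at 7 h, and Fgf10 or Fgf3 makes up the largest share at day 6 and in the XEN lines.

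The summed ligand level was high at the start, low between 21 and 49 h, and high again at day 6 with other genes. The 7 genes summed to 86.6 FPKM in R1 ESC, 72.2 FPKM without dox, 29.1 after 7 h, 18.2 after 21 h, 13.2 after 35 h, 14.0 after 49 h, 42.9 FPKM at day 6, 68.1 FPKM in Sox17-XEN and 24 FPKM in wild-type XEN. Fgf3 and Fgf10 together were 1.29% of the sum in R1 ESC, 3.53% without dox, 6.54% after 7 h, 11.1% after 21 h, 16.6% after 35 h, 31.8% after 49 h and 94.9% at day 6. They were 99.8% of it in Sox17-XEN and 99.7% in wild-type XEN. The share of these 2 genes was higher in each later library, although their summed level stayed between 1.90 and 2.20 FPKM from 7 to 35 h.

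Within that sum the leading gene changed. Fgf4 held 46.1% in R1 ESC, 46.5% without dox and 49.4% after 7 h. At 21 h Fgf8 held the most, 39.3%, with Fgf4 at 28.5%, and at 35 and 49 h Fgf4 led again with 36.6% and 36.8%. Fgf10 held 69.4% at day 6 and 69.9% in wild-type XEN, while Fgf3 held 82.8% in Sox17-XEN. The 2 XEN lines thus shared a high portion of Fgf3 and Fgf10 and differed in which of them led.

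Of the 15 other FGF ligand genes 7 reached 1 FPKM in some library. None of those 7 was past 2 log2 units in any dox comparison or in Sox17-XEN against no dox, and in wild-type XEN against R1 ESC 1 was lower, Fgf7 (-2.17). Fgf7 was also past it between the XEN lines, at 2.17 with Sox17-XEN higher. Fgf7, a fibroblast ligand, was at 8.58 FPKM without dox, 23.5 after 49 h and 2.35 FPKM at day 6, and its highest level was in the library with the highest feeder sum. The 7 members made up 87.1% of the FPKM of all 22 ligands in R1 ESC, 30.6% after 49 h and 86.8% at day 6.

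**Figure D4:**
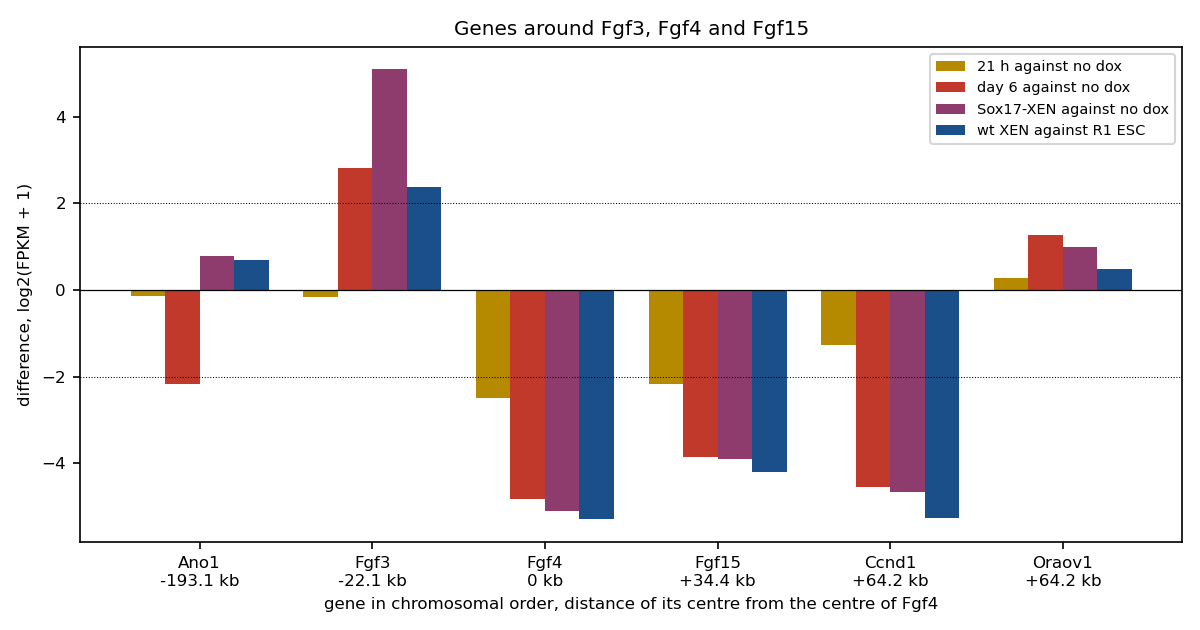
Difference in log2(FPKM + 1) for genes within 250 kb of Fgf3, Fgf4 and Fgf15 that reached 1 FPKM, in chromosomal order with distance from the centre of Fgf4 (horizontal axis), in 4 comparisons (colours). Dotted lines mark 2 and -2. Fgf3 bars point up and Fgf4, Fgf15 and Ccnd1 bars point down at day 6 and in both XEN lines.

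On chromosome 7 the opposite directions met within 16.9 kb. At day 6 Fgf3 differed from no dox by 2.83 log2 units, and Fgf4 and Fgf15 differed by -4.84 and -3.86. On the far side of Fgf15, the cyclin gene Ccnd1 was lower too, at 3.66 FPKM against 109 FPKM (-4.56), while Oraov1, listed at the same locus as Ccnd1, differed by 1.28. The chloride channel gene Ano1, on the near side of Fgf3, was at 0.180 FPKM at day 6 against 4.28 FPKM (-2.16), but at 8.09 FPKM in Sox17-XEN. At 21 h Fgf4 and Fgf15 were lower while Fgf3 (-0.17), Ano1 (-0.14) and Oraov1 (0.28) were within the difference.

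The members were also compared with every other gene by the root mean square difference of centred log2(FPKM + 1) over the 9 libraries, among 12482 named genes. These libraries share a cell state series and differ in depth, so likeness is a description. Fgf17 and Fgf15, on different chromosomes, were among each other's closest genes: Fgf15 was the nearest gene to Fgf17 at 0.30 log2 units, and Fgf17 was second to Fgf15 after Accsl (0.24). H2-M5, an MHC class Ib gene, and the stem cell transcription factor gene Foxd3 were the next nearest to Fgf17, at 0.32 and 0.38. Genes near Fgf4 included Tcea3 (0.21), an elongation factor gene, and the muscle myosin light chain gene Mylpf (0.48). Nearest to Fgf8 were Vrtn (0.19), Cabp1 (0.23) and the myosin gene Myh14 (0.23).

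Nearest to Fgf5 were the axon guidance gene Ntn1 (0.25), the inositol transporter gene Slc5a11 (0.26) and Zfp57 (0.33), a zinc finger gene that keeps imprints. Nearest to Fgf10 were Tmem104 (0.18), the protein S gene Pros1 (0.20) and the sulfate transporter gene Slc26a2 (0.21), each highest at day 6. Nearest to Fgf3 were the sulfatase gene Arsi (0.36), the kinase gene Wnk4 (0.42) and Lrrc38 (0.42), each highest in Sox17-XEN. Among the members themselves the closest pair was Fgf15 and Fgf17 (0.30) and the farthest was Fgf3 and Fgf4 (3.57), the neighbours on chromosome 7. Fgf8 and Fgf17, the subfamily relatives, were 1.03 apart.

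Fgf4 is known to be switched on by Sox2 and Oct4 (Pou5f1) acting together, and these were compared with it at each time. At 21 h Fgf4 was at 15.4% of its no dox level, Sox2 at 65.6% (85.7 FPKM) and Pou5f1 at 128% (927 FPKM). At 49 h the values were 15.3%, 69.7% and 113%. At day 6 they were 0.624%, 1.41% and 44.9%. So Fgf4 was past 2 log2 units from 21 h on while Sox2 and Pou5f1 were not until day 6, when Sox2 was. The neural and epiblast factor genes Zic2 and Zic5 were at 8.49% and 7.47% after 21 h, close to the 7.35% of Fgf17. Of the 10 genes listed as regulators or partners at FGF loci, which include the induced Sox17, 2 were higher and 2 lower at 21 h. Over all features 0.746% were higher and 0.446% lower at that time.

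The receiving side of the pathway is given for context. In the list counts that follow, the shares of all features given above are the background: 8.24% higher and 6.54% lower in wild-type XEN against R1 ESC, and, against no dox, 5.14% and 3.86% at day 6 and 5.75% and 5% in Sox17-XEN. Of 6 receptors and co-receptors compared, 3 were higher and 1 lower in wild-type XEN and at day 6, and 3 were higher and 2 lower in Sox17-XEN. Klb, the co-receptor that endocrine FGFs such as Fgf15 need, was at 0.0686 FPKM without dox, 3.58 after 21 h and 102 FPKM at day 6, and Fgfr4 was at 0.609, 1.81 and 31.4 FPKM, so Fgf15 was low in the libraries where both were high. Fgfr2, whose Fgfr2b form binds Fgf3 and Fgf10, was at 10.7 FPKM without dox, 37.8 FPKM at day 6, 1.27 FPKM in Sox17-XEN and 2.35 FPKM in wild-type XEN, and gene-level values do not separate its forms. Of 15 heparan sulfate genes 4 were higher and 0 lower at day 6, with Hs3st1 (6.25) and Gpc3 (6.04) the largest. Of 14 signal relay genes 1 was higher at day 6, a count near the background: Frs2 (2.03), the docking protein gene of FGF receptors.

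Among 18 ERK targets and inhibitors, 1 was lower and 0 higher at 21, 35 and 49 h, when 3 ligand genes were lower. At these times 0.446% to 0.466% of all features were lower and 0.614% to 0.746% higher. The lower gene of the 18 was Egr1, at 35.3 FPKM without dox and 3.55 after 21 h (-2.996). The next largest differences at 21 h were those of the immediate early gene Fos (-1.43) and the feedback inhibitor genes Spry2 (-1.11) and Dusp4 (1.06), all within 2 log2 units, and the median of the 18 was -0.22 against -0.06 for all features. At day 6 1 of 18 was higher, Fos (3.09), and 3 were lower, Myc (-3.47), Etv5 (-2.60) and Dusp6 (-2.31). In Sox17-XEN 1 was higher and 6 lower, led by Etv5 (-5.05), and in wild-type XEN 1 was higher and 3 lower.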

How the data were processed

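RNA sequencing libraries of 9 mouse stem cell groups were analysed, 1 library per group. Build mm9 and the tools Cufflinks 2.1.2, TopHat2 2.0.11 and Cuffdiff are listed in the submitters' processing notes. Trizol RNA went into TruSeq libraries, per the labels' protocols. Per the file headers, the deposited table gives FPKM per gene with confidence bounds and a status. The scaling between libraries and the use of strand are not given in the sources used here. Counts are not used here, so the absolute depth is unknown. Depth relative to R1 ESC came from the commonest ratio of low FPKM values (under 0.5), shared within 0.02 log2 units by 5.24% to 10.7% of them.

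Any value with a status other than OK counted as missing, and all 63 member values were OK. Rows with a maximum of at least 1 FPKM were kept. Pairs of libraries were compared as differences of log2(FPKM + 1) with no test. Trends and lines were tested two-sided with limma 3.58.1 (R 4.3.3), with moderation on a mean trend and Benjamini-Hochberg adjustment over all features, and were tested on simulated data. Python 3.11.15, numpy 2.4.6, pandas 2.3.3 and matplotlib 3.10.9 were used. Coordinates of genes are 1-based in mm9, and promoter sequences are RefSeq in GRCm38.p6.

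The members, lists and motifs were chosen with earlier results of these data known. All 7 members were named, with the 3 genes most like each (1 of them is not reported here), at most 4 genes per list with the largest differences, and rows within 250 kb of the chromosome 7 members. Fgf7, Klb, Fgfr4 and Fgfr2 were chosen for their roles after values were seen. Alternatives changed the pseudocount, scaling, filter, threshold, interval condition, reference library, time scale and libraries.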

Additional observations from a re-analysis of the deposited data

How the results depend on the processing

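Counts of members past 2 log2 units depended most on the pseudocount and on the interval condition. With a pseudocount of 5 the count was 3 in wild-type XEN against R1 ESC, 0 at 21, 35 and 49 h, 2 at day 6 and 2 in Sox17-XEN against no dox, beside 5.98%, 0.306% to 0.36%, 3.78% and 4.23% of all features. When the authors' intervals also had not to overlap, it was 0 in all of these and in Sox17-XEN against wild-type XEN, since every lower bound is 0 (at most 0.0601% of all features passed). At 7 h it was 2 with a pseudocount of 0.1, 4 at 1 log2 unit and 1 against R1 ESC, beside 1.53%, 3.03% and 0.827% of all features. Rescaling and leaving out the filter kept the counts within 1.5 times, with 6 for Sox17-XEN after rescaling. In the trend test 5 members passed with time in hours, which gives day 6 most weight, beside 4307 upward and 2033 downward of 14933 features. With Sox17-XEN added 4 members passed, beside 1282 upward and 727 downward of 14907 features. Leaving out 1 library at a time gave 0 members in either limma test, and the slope ran from -0.29 to 0.0705 for Fgf5, upward without the no dox library, and from -0.0150 to 0.63 for Fgf3, downward without day 6. Without day 6 the slope was 0.17 for Fgf10 and -0.18 for Fgf8, and without the no dox library -0.38 for Fgf17. In the comparison of lines 3 members passed with a pseudocount of 0.1, beside 44 higher and 61 lower of 14925 features. Against 0 it was 6 members, beside 1729 higher and 1476 lower of these features. Without the mean trend it was 1 member, beside 28 higher and 33 lower. With the replicate block of wild-type and Sox17 pairs 0 members and 0 features passed. Over all features the main trend test called 0. The main comparison of lines called 13 features (6 higher, 7 lower), against 0 without the filter. In the comparison of lines adjusted p ran from 0.0171 to 0.699 for Fgf4 and from 0.0740 to 1 for Fgf3, and in the trend test from 0.00924 to 0.301 for Fgf4 and from 0.00697 to 0.911 for Fgf3. The libraries have no replicates, so no setting gives an error for a single value.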
